A study of Mus musculus with 6 samples.

Results

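The FGF ligands of tooth development described here are 9 genes, *Fgf1*, *Fgf2*, *Fgf3*, *Fgf4*, *Fgf7*, *Fgf8*, *Fgf9*, *Fgf10* and *Fgf20*, chosen by name because they are known from the dental epithelium, the enamel knot or the dental mesenchyme. Each matched 1 of the 55487 genes in the deposited expression table. RNA-seq was performed on dental epithelium of the mandibular first molar (M1) of mice at postnatal day 2.5 (PN2.5), when Hertwig's epithelial root sheath starts to form. The control group was 3 libraries from *Wnt10a* fl/fl mice, which carry both floxed alleles but no Cre. The cKO group was 3 libraries from *K14-Cre;Wnt10a* fl/fl mice, in which Cre recombinase under the keratin 14 promoter deletes *Wnt10a* in epithelial cells, so that mesenchymal cells are not targeted. Each library was a pool of 4 or 5 molars, as the sources differ in the number. The comparison asks whether these ligands changed after epithelial loss of *Wnt10a*, itself the gene of a secreted Wnt ligand.

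Fibroblast growth factors are secreted proteins that bind receptor tyrosine kinases together with heparan sulfate and activate the Ras and MAP kinase cascade. In the tooth germ, signals pass both ways between the layers. *Fgf8* marks the early oral epithelium, *Fgf4* and *Fgf20* the enamel knot, the signaling center of the cap stage, and *Fgf9* the epithelium over several stages, whereas *Fgf3*, *Fgf7* and *Fgf10* are ligands of the mesenchyme that act on epithelial receptors. *Fgf1* and *Fgf2* encode the acidic and basic FGF, which lack a classical secretion signal.

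The unit of the table is TPM, a transcript's share of a library scaled for its length, so levels can be compared between genes, while the sequencing depth behind them is unknown. *Wnt10a* was 51.2 to 57.9 TPM in the control libraries and 21.8 to 32.2 TPM in the cKO libraries, without overlap. The tissue label was checked against cell type markers. The epithelial keratins *Krt14* and *Krt5* were at 1945 TPM or more in every library, and all 9 epithelial markers were tested. Mesenchymal and odontoblast markers were also present, with *Col1a1* at 1795 to 3127 TPM and *Dspp*, which presecretory ameloblasts also express, at 352 to 1302 TPM, so the libraries were not purely epithelial. Genes annotated as rRNA summed to 1363, 3283 and 2032 TPM in control replicates 1 to 3 and to 16291, 12080 and 8400 TPM in cKO replicates 1 to 3, so this sign of RNA or library quality separated the groups without overlap. Since these are bulk samples, fewer cells of a type and less RNA per cell cannot be told apart.

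*Fgf1* was by far the most abundant of the 9 ligands in both groups. It made up 82.6% to 94.3% of the summed TPM of the 9 genes in a library. Only *Fgf1* and *Fgf9* averaged 1 TPM or more across the libraries, the minimum for testing, and the other 7 ligands were below 1 TPM in every library. *Fgf4* and *Fgf8* were listed at 0 in all 6 libraries. Of the 2 tested ligands, 0 met the criteria for a changed gene, which asked for group means more than 20% of the control mean apart with p under 0.05 before adjustment. These criteria were met by 4.02% of the 13719 genes tested with limma, and 0.0146% had an adjusted p below 0.05, none of them a ligand. The deleted gene *Wnt10a* met the criteria, but its p from limma was 0.000653 before and 0.747 after adjustment.

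**Figure D1:**
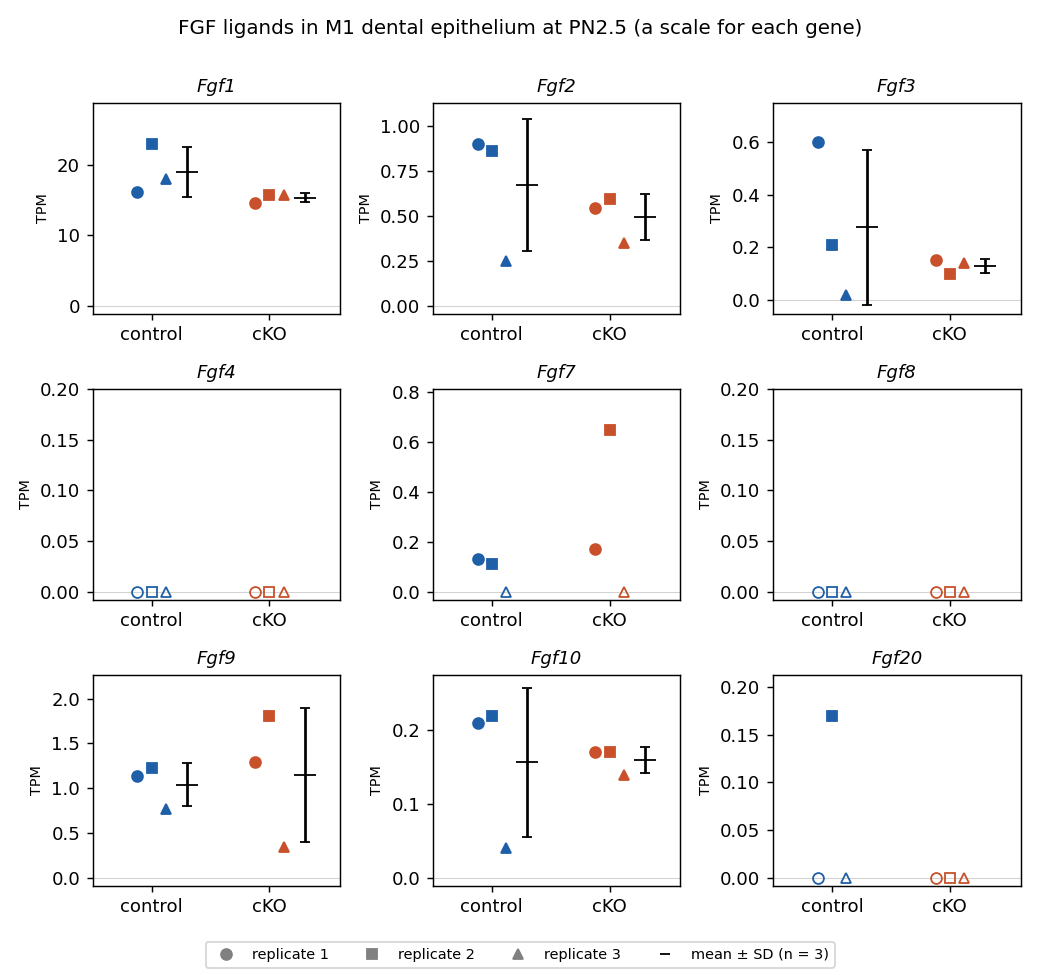
TPM of the 9 FGF ligands in each of the 3 control and 3 cKO libraries, with a linear scale for each gene; symbols give the replicate number, open symbols mark values listed at 0, and black bars give the mean ± SD (n = 3) for genes above 0 in all libraries. *Fgf1* is at 14.6 TPM or more in every library, and every cKO library lies below every control library, whereas the groups of the other ligands with values overlap.

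*Fgf1* (ENSMUSG00000036585), whose product binds every class of FGF receptor, lies on chromosome 18 between 38838673 and 38929472 (reverse strand) in the GENCODE annotation of GRCm38, where its longest transcript has 5 exons and 3983 bases. Control replicates 1 to 3 had 16.1, 23.0 and 17.9 TPM of *Fgf1*, and cKO replicates 1 to 3 had 14.6, 15.7 and 15.6 TPM. The values of every gene below follow the same order. Every cKO library was thus below every control library, and the cKO values were close together while control replicate 2 stood above the others. Among the 13719 tested genes, 9.64% had groups that did not overlap, and 6.13% were lower in cKO in this way. The control mean was 19.0 ± 3.56 TPM (SD, n = 3) and the cKO mean 15.3 ± 0.608 TPM (SD, n = 3), or 80.6% of the control. A two-sided exact permutation test gave p = 0.1, which no comparison of 3 with 3 libraries can go below. In limma the log2 fold change of TPM + 1 was -0.28 ± 0.19 (standard error), and its p was 0.177 before and 1.00 after Benjamini-Hochberg adjustment over all genes. The 95% interval of the difference, -0.72 to 0.16, spans from 60.8% to 112% of the control level, so it includes both a decrease and no change. The rRNA sums given above also did not overlap between the groups, and their part in the difference of *Fgf1* was not tested. With median-ratio scaling of the libraries the groups overlapped, at 15.3 to 20.4 scaled TPM in the control and 14.1 to 17.3 in the cKO. With rescaling without the enamel matrix genes *Amelx* and *Ambn* they did not, at 20.2 to 28.6 in the control and 17.4 to 19.7 in the cKO. In the control, the mean of *Fgf1* was above those of 80.1% of the genes with any signal.

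*Fgf9* (ENSMUSG00000021974), an epithelial ligand that signals to mesenchymal receptors, lies on chromosome 14 between 58070547 and 58112720 (forward strand) and has a longest transcript of 3 exons and 3593 bases. The control libraries held 1.13, 1.22 and 0.77 TPM of it and the cKO libraries 1.29, 1.81 and 0.34 TPM. Both the highest and the lowest library were cKO libraries, so the control values fell inside the cKO range. The control mean was 1.04 ± 0.238 TPM (SD, n = 3) and the cKO mean 1.15 ± 0.745 TPM (SD, n = 3), with p = 0.8 in the two-sided exact permutation test. The log2 fold change in limma was 0.01 ± 0.35 (standard error), with p at 0.968 before adjustment, and the sign turned in 5 of 15 alternative fits, including a pseudocount of 0.1 (-0.091) and rescaling without the enamel matrix genes *Amelx* and *Ambn* (-0.047). The 95% interval of -0.80 to 0.83 leaves room for a large change in either direction. *Fgf9* was near the minimum level for testing, as it ranked 13520 of the 13719 tested genes by mean TPM.

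*Fgf2* (ENSMUSG00000037225), on chromosome 3 between 37348346 and 37410108 (forward strand), was the third most abundant ligand in both groups. It read 0.90, 0.86 and 0.25 TPM in controls and 0.54, 0.59 and 0.35 TPM in cKO. Control replicate 3 was the lowest of all 6, and the groups were not separated by the two-sided exact permutation test (p = 0.5). The annotation places 640 exon bases of *Nudt6* on the opposite strand of *Fgf2*, and *Nudt6* was at 1.89 to 3.93 TPM. Since the counting is not stated to have used strand, reads from the shared bases cannot be told apart.

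The mesenchymal ligands were lower still. *Fgf10*, the main mesenchymal ligand of the epithelial form of FGFR2, lies on chromosome 13 between 118669791 and 118792115 (forward strand). Controls had 0.21, 0.22 and 0.04 TPM and cKO had 0.17, 0.17 and 0.14 TPM. The means of 0.157 and 0.16 TPM differed by less than the spread of the libraries (two-sided exact permutation test, p = 1). *Fgf7*, also known as keratinocyte growth factor, lies on chromosome 2 between 126034658 and 126091185 (forward strand) and read 0.13, 0.11 and 0 TPM in controls against 0.17, 0.65 and 0 TPM in cKO. One library of each group was listed at 0, and the highest value was that of cKO replicate 2 (two-sided exact permutation test, p = 0.5).

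*Fgf3*, which acts with *Fgf10* on the epithelium, and *Fgf4*, an enamel knot ligand, are neighbors on the forward strand of chromosome 7, at 144838083 to 144844436 and 144847367 to 144865243, with 2930 bases between the gene bodies. For *Fgf3*, controls had 0.60, 0.21 and 0.02 TPM and cKO had 0.15, 0.10 and 0.14 TPM. The control libraries spread on both sides of the cKO libraries (two-sided exact permutation test, p = 0.7). *Fgf4* was listed at 0 in each of the same 6 libraries. The promoters of this pair are shown because the genes are neighbors of which only *Fgf3* had signal, and because the deleted gene encodes a Wnt ligand, whose canonical pathway acts through TCF/LEF proteins. The windows, from RefSeq on GRCm38.p6, run from 250 bases before the annotated start to 50 bases after it on the forward strand, at chr7:144838362-144838661 for *Fgf3* and chr7:144861136-144861435 for *Fgf4*. The RefSeq starts of both genes and their whole windows lie inside the GENCODE gene bodies given above. The body of *Fgf4* begins with a longer transcript, so the windows do not flank the gap between the bodies. Capitals mark a match to the TCF/LEF motif, searched on both strands as CTTTGAA or CTTTGAT.
Fgf3: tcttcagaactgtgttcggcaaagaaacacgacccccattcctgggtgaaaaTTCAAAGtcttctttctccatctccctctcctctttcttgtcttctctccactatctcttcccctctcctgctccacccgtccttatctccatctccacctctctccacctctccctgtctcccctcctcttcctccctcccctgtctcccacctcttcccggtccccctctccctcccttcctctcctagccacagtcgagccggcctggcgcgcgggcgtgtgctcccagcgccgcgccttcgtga
Fgf4: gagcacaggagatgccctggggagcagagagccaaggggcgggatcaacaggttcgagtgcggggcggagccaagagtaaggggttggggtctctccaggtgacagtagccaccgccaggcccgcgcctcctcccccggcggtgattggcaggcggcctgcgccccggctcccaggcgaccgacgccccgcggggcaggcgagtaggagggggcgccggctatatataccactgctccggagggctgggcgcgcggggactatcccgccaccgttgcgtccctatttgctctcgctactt
The *Fgf3* window held 1 match, on the reverse strand, starting 198 bases before the RefSeq start but inside the GENCODE gene body. The *Fgf4* window held none. Among the 6 ligands with a RefSeq window, *Fgf3* was the only one with a match, and 8.65% of all 32851 promoter windows had one. The windows of *Fgf3* and *Fgf4* had 14 and 28 CG dinucleotides, against a median of 7 over all windows. A match is a description of the letters and not a binding site.

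*Fgf8*, an early epithelial ligand, lies on chromosome 19 between 45736798 and 45742915 (reverse strand) and was listed at 0 in all 6 libraries. *Fgf20*, an enamel knot ligand, lies on chromosome 8 between 40279166 and 40308331 (reverse strand). It was above 0 in control replicate 2 alone, at 0.17 TPM, and listed at 0 in the other libraries. It shares 202 exon bases with *Micu3* on the opposite strand, which was at 5.08 to 11.96 TPM. With no depth in the table, no limit can be set on what a value of 0 allows for *Fgf4*, *Fgf8* and *Fgf20*.

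Ordered by their means, the ligands in the control were *Fgf1*, *Fgf9*, *Fgf2*, *Fgf3*, *Fgf10*, *Fgf7* and *Fgf20*. The step from *Fgf1* to *Fgf9* was 18.3-fold in the control and 13.4-fold in the cKO, and the ranges of both genes did not overlap. Below *Fgf1*, the range of each neighbor in the control order overlapped the next. Within a library, *Fgf9* was nevertheless above *Fgf2* in 3 of 3 control and 2 of 3 cKO libraries, and in the control *Fgf2* was above *Fgf3* and *Fgf10* above *Fgf7* in 3 of 3. However, *Fgf3* was above *Fgf10*, and *Fgf7* above *Fgf20*, in only 1 of 3 control libraries. In the cKO the order was *Fgf1*, *Fgf9*, *Fgf2*, *Fgf7*, *Fgf10* and *Fgf3*, and the ranges of these neighbors below *Fgf1* overlapped as well. Of the 7 ligands with a value above 0 in some library, 4 had a lower and 3 a higher mean in cKO than in control, but the sign of *Fgf3*, *Fgf9* and *Fgf10* turned when some library was left out. Among all tested genes, 60.3% had a log2 fold change below 0.

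Among the other secreted FGF ligands, a list of 9 genes, only *Fgf16* reached the minimum for testing. It was the second most abundant secreted FGF ligand, reading 1.36, 2.53 and 1.70 TPM in controls against 1.36, 5.24 and 2.51 TPM in cKO. The groups overlapped, and limma gave 0.40 ± 0.39 (standard error) for the log2 fold change, with p at 0.34 before adjustment. *Fgf21*, a metabolic hormone, and *Fgf22* averaged 0.823 and 0.47 TPM in controls and 0.933 and 0.213 TPM in cKO, and *Fgf6* and *Fgf15* were listed at 0 in all libraries. *Fgf17*, also under the minimum, was the gene of this list whose groups did not overlap. It read 0, 0.06 and 0.16 TPM in controls against 0.25, 0.23 and 0.21 TPM in cKO. Among the tested genes, 9.64% had groups that did not overlap, a share that leaves out genes under the minimum. *Fgf17* was among the 940 of 28254 genes past the criteria where no minimum level was set. Of the 4 FGF homologous factors, which stay inside the cell and do not signal through FGF receptors, 3 were tested and 0 met the criteria. *Fgf12*, *Fgf11* and *Fgf13* had log2 fold changes of 0.07, -0.08 and 0.02.

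**Figure D2:**
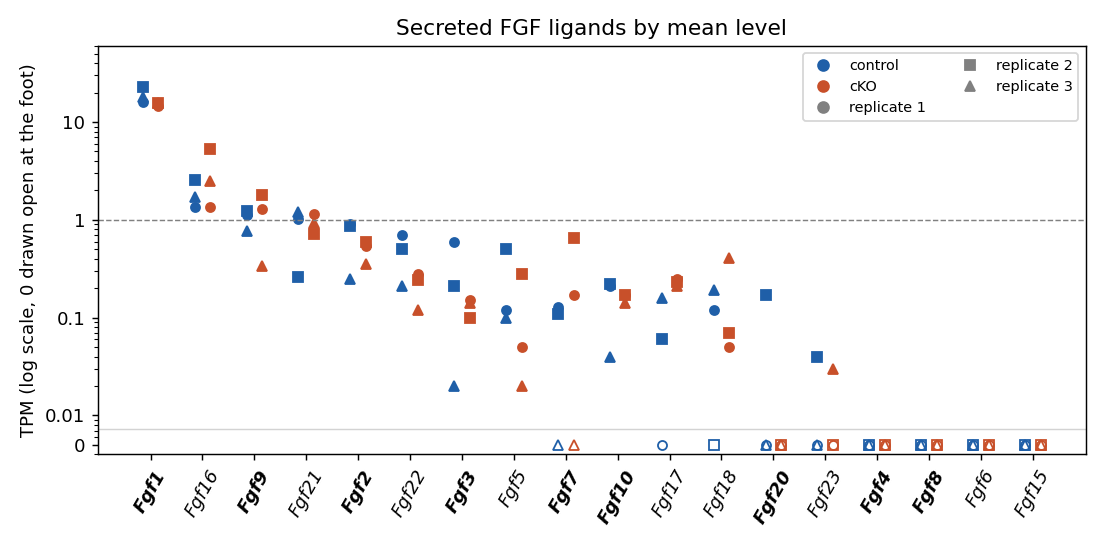
TPM on a log axis of the 18 secreted FGF ligands, ordered by their mean, in each control and cKO library; names in bold are the 9 ligands of tooth development, values listed at 0 are drawn open below the grey line, and the dashed line marks 1 TPM. *Fgf1* stands above all others at 14.6 to 23.0 TPM, while *Fgf4*, *Fgf8*, *Fgf6* and *Fgf15* are at 0 in every library.

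The rest of the pathway was read from lists of 68 genes, of which 50 were tested. In these lists 2 genes met the criteria, or 4%, against 4.02% of all genes tested, where 1.55% were called higher and 2.47% lower. The median log2 fold change was -0.10 against -0.07 over all genes tested. *Fgfr2*, the receptor for *Fgf3*, *Fgf7* and *Fgf10* in its epithelial form, was called higher in cKO, with 285, 410 and 621 TPM in controls against 1024, 626 and 651 TPM in cKO. In limma the log2 fold change was 0.84 ± 0.32 (standard error), and p was 0.0328 before and 1.00 after adjustment. The call was lost without control replicate 1, control replicate 2 or cKO replicate 1, where limma gave log2 fold changes of 0.57, 0.83 and 0.61 and unadjusted p of 0.114, 0.0848 and 0.129. It was also lost with quantile normalization, median-ratio scaling and rescaling without *Amelx* and *Ambn*, at log2 fold changes of 0.70, 0.91 and 0.76 and unadjusted p of 0.0615, 0.0582 and 0.0639. The part of the difference in rRNA between the groups was not tested for *Fgfr2* or *Il17rd*. *Fgfr1*, with means of 333 TPM in controls and 296 TPM in cKO, had a log2 fold change of -0.15, and *Fgfrl1*, a receptor without a kinase domain, had -0.17.

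Of the 12 tested FGF target and feedback genes, 1 met the criteria. *Il17rd*, which encodes an inhibitor of FGF signaling, read 9.97, 14.5 and 8.83 TPM in controls against 6.35, 3.52 and 8.15 TPM in cKO, without overlap. In limma the log2 fold change was -0.82 ± 0.32 (standard error), and p was 0.0352 before and 1.00 after adjustment. Once the libraries were corrected for GC content and transcript length, these were -0.51 and 0.154 before adjustment, and under quantile normalization and median-ratio scaling the log2 fold changes were -0.72 and -0.75 and the unadjusted p 0.0752 and 0.0546. The call was also lost without control replicate 1, control replicate 2, cKO replicate 1 or cKO replicate 2, with log2 fold changes of -0.88, -0.63, -0.88 and -0.53 and unadjusted p from limma of 0.0701, 0.125, 0.0726 and 0.111. The 3 most abundant genes of the list, the feedback genes *Spred1* and *Dusp6* and the transcription factor *Etv4*, overlapped between the groups, at -0.12, 0.24 and 0.17 on the log2 scale. *Spred2* read 10.5, 8.62 and 8.33 TPM in controls against 6.32, 7.85 and 8.08 TPM in cKO, like *Il17rd* without overlap. Its log2 fold change was -0.27, with p from limma of 0.209 before adjustment. Of all genes tested, 9.64% had groups that did not overlap. The median over the 12 genes was -0.07.

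Of 13 tested carriers, heparan sulfate core proteins and enzymes, 0 met the criteria, with a median of -0.14, and the 3 most abundant, *Gpc3*, *Sdc1* and *Hspg2*, had log2 fold changes of 0.01, -0.35 and -0.14. All 7 adapters between receptor and Ras were tested and 0 met the criteria, with a median of -0.24 and values of -0.07, -0.45 and -0.31 for *Grb2*, *Ptpn11* and *Shc1*. Among the 6 genes known to act on FGF ligand genes in the tooth germ, 5 were tested and 0 met the criteria, with *Bmp4* and *Msx1* at -0.22 and -0.01. Enamel knot markers other than FGF genes were not all silent. *Cdkn1a*, *Shh* and *Msx2*, which are also used in other dental cells, had control means of 452, 149 and 94.6 TPM, whereas *Dkk4* was listed at 0 in all libraries like *Fgf4*. Of the 5 tested markers on this list 0 met the criteria. *Slit1*, under the minimum, had groups that did not overlap, as had 9.64% of the tested genes, a share that leaves out genes under the minimum. It read 0.98, 0.94 and 0.91 TPM in controls against 0.26, 0.26 and 0.79 TPM in cKO. Like *Fgf17*, it was among the 940 of 28254 genes past the criteria where no minimum level was set.

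**Figure D3:**
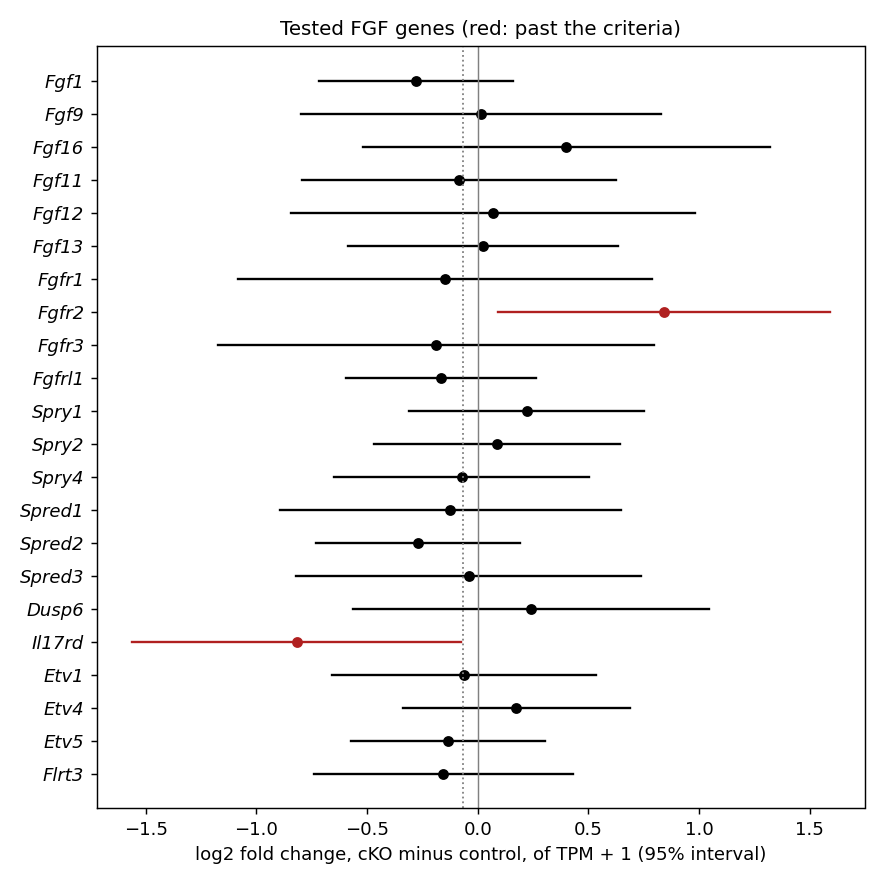
Log2 fold change (cKO minus control, of TPM + 1) of the tested FGF ligands, homologous factors, receptors and target genes, with points for the estimate and lines for its 95% interval from limma; the dotted line is the median of all genes tested, -0.07. The intervals of *Fgf1* and *Fgf9* include 0, and *Fgfr2* and *Il17rd*, in red, are the genes past the criteria.

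The libraries within a group differed in the low ligands. In both groups, replicate 3 was the lowest library for *Fgf2*, *Fgf7*, *Fgf9* and *Fgf10*, 4 of the 7 ligands with a value. Among all tested genes 37.2% had that pattern, and among genes with a mean above 0 and under 1 TPM 16.9% had it. Of the 9 epithelial markers 2 also had it, *Epcam* at 104, 93.2 and 55.8 TPM in controls against 94.6, 157 and 80.5 TPM in cKO, and *Trp63* at 134, 145 and 86.2 against 90.4, 105 and 84.9 TPM. *Fgf1* and *Fgf3* did not, with cKO replicates 1 and 2 as their lowest cKO libraries. Of the 10 mesenchymal markers 6, and all 3 odontoblast markers, were lowest in replicate 3 of both groups. *Pdgfra*, *Col1a1* and *Col1a2* were not, with cKO replicate 1 as their lowest cKO library. *Twist1* was not either, with control replicate 2 as its lowest control library. *Postn*, a matrix protein of the mesenchyme, read 46.4, 39.1 and 10.3 TPM in controls against 27.3, 52.1 and 10.1 TPM in cKO. *Lum*, a matrix proteoglycan, read 81.9, 61.0 and 23.9 TPM in controls against 61.1, 108 and 30.6 TPM in cKO. The summed odontoblast markers were 429 TPM in control replicate 3 against 1203 and 1479 in the other control libraries, and 569 TPM in cKO replicate 3 against 768 and 1081. The summed mesenchymal markers, of which the most abundant are collagens, were 2971 TPM in control replicate 3 against 3257 and 5443, but 4038 TPM in cKO replicate 3 against 3728 and 4035. Both libraries numbered 3 also had the fewest genes above 0, 20722 and 20185 against 21686 to 23203 in the others. The part of tissue composition and of library complexity in the ligand values was not tested.

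**Figure D4:**
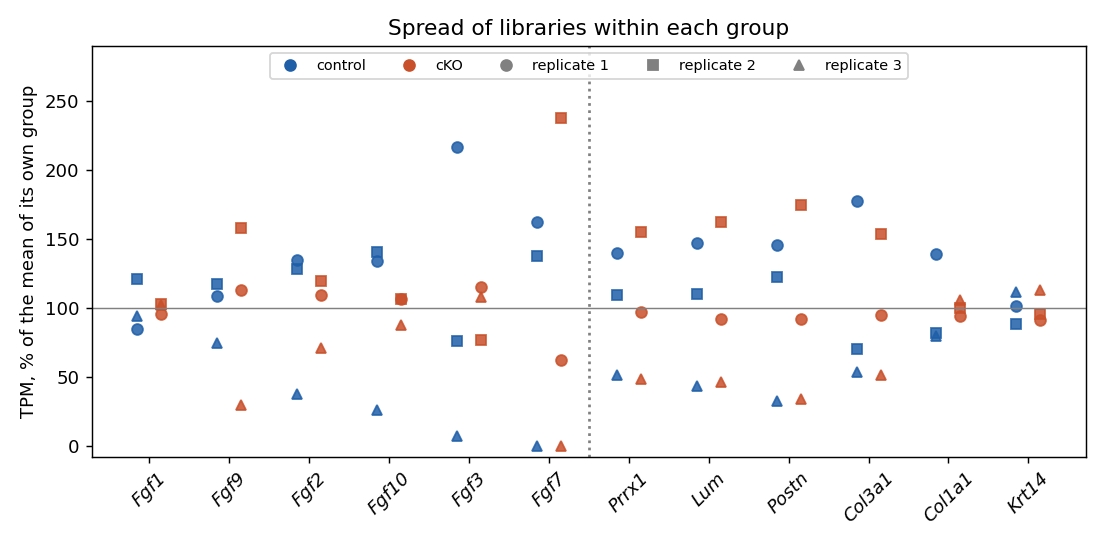
TPM of 6 FGF ligands (left of the dotted line) and of 5 mesenchymal markers and *Krt14* (right) in each library, as a percent of the mean of its own group; symbols give the replicate number. Triangles, the libraries numbered 3, are lowest in both groups for *Fgf9*, *Fgf2*, *Fgf10*, *Fgf7*, *Prrx1*, *Lum*, *Postn* and *Col3a1*, but not for *Fgf1*, *Fgf3*, *Col1a1* or *Krt14*. The epithelial markers *Epcam* and *Trp63*, not drawn, share the pattern.

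Without both libraries numbered 3, a setting chosen after seeing the data, 0 of the 2 tested ligands met the criteria. In that setting 1220 of the 13719 genes met them, so a count over 2 ligands says little.

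Markers of other cell types were tested over all 6 libraries. Of 5 endothelial markers 2 met the criteria, *Cdh5* and *Tek*, both lower in cKO, and of 4 erythroid markers 1 did, *Hbb-bs*, also lower. Of all genes tested, 4.02% met the criteria and 2.47% did so with lower values in cKO. Unadjusted p from limma for *Cdh5*, *Tek* and *Hbb-bs* were 0.0288, 0.0458 and 0.0323, each with an adjusted p of 0.9999. The groups of *Cdh5* overlapped, while those of *Tek* and *Hbb-bs* did not, as for 9.64% of the tested genes. All 5 endothelial and all 4 erythroid markers had a log2 fold change below 0, as had 60.3% of all genes tested. Their medians were -0.54 and -0.41, against -0.07 over all genes tested. None of the tested immune (3), glial and nerve (3), mesenchymal (10), odontoblast (3) or epithelial (9) markers met the criteria. Of the epithelial markers 8 of 9 had a log2 fold change below 0, with a median of -0.30, and of the mesenchymal markers 4 of 10, with a median of 0.06. *Ambn* read 31405, 32180 and 33061 TPM in controls against 24646, 8562 and 26263 TPM in cKO, without overlap. Its p from limma was 0.0766 before adjustment. The groups of the immune marker *Lyz2* did not overlap either. The 5 skeletal muscle markers were below 1 TPM in every library, and their sum was 0.20 to 1.75 TPM.

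Across the 6 libraries, the tested genes most like *Fgf1* in log2(TPM + 1) were *Gli1*, a transcription factor of the Hedgehog pathway, and *Tubgcp6*, a component of the gamma-tubulin complex, with Pearson's r of 0.995 and 0.993. *Gli1* read 63.6, 106 and 74.6 TPM in controls against 59.6, 63.3 and 64.2 TPM in cKO, with the same high control replicate 2. For *Fgf9* they were *Rmdn2* and *Chek1*, a cell cycle checkpoint kinase, with r of 0.996 and 0.995. *Chek1* read 3.03, 3.34 and 1.72 TPM in controls against 4.11, 6.19 and 0.77 TPM in cKO. These are descriptions over 6 libraries, and 231 genes had an r above 0.9 with *Fgf1* and 284 with *Fgf9* out of 12157 compared.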

How the data were processed

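The RNA-seq libraries were assigned to control (n = 3) and cKO (n = 3) by their titles. Replicate numbers are also those of the titles. Except for replicate 1, the deposited columns of the same libraries carry other numbers. The labels do not tie the libraries to litters, so p-values measure the spread between these pooled samples. SeqPrep and Sickle served for trimming and HISAT2 for alignment by the authors, who deposited 1 value per gene and library. The methods name RSEM and FPKM, and the submitters' processing notes name StringTie. The deposited values are taken as TPM because each library sums to between 983952 and 993946. Tool versions, genome build and annotation are not given in the sources used here, and 99.5% of the gene identifiers were found in GENCODE M21 of GRCm38, used for positions and transcript lengths. TPM keep no depth, so counting error, which weighs most on low values, is unknown.

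Genes averaging 1 TPM or more across the libraries were tested on log2(TPM + 1) with limma 3.58.1 in R 4.3.3 (lmFit, eBayes with a trend, no block). This scale understates the change of low genes. After the study's criteria, a gene was called where the group means lay more than 20% of the control mean apart with p under 0.05 before adjustment. Benjamini-Hochberg adjustment covered all 13719 genes, and 2 had an adjusted p below 0.05 (552 an unadjusted p below it). The groups of the 7 ligands above 0 in some library were also compared by two-sided exact permutation tests, without adjustment. The fits were tested on simulated data. The ligands and gene lists were chosen with earlier results of these data known. Named besides the 9 ligands are the genes past the criteria and the 3 most abundant of each pathway list, and the 2 genes most correlated with each tested ligand, leaving out names that start with Gm, end in Rik or hold a dot. A gene that this rule names is not reported here. *Dkk4*, *Fgf6*, *Fgf15*, *Fgf17*, *Slit1*, *Spred2*, and the markers and overlapping genes given with values were chosen after their values were seen. Alternatives were no minimum level, a pseudocount of 0.1, median-ratio scaling, quantile normalization, rescaling without *Amelx* and *Ambn*, a correction for GC content and transcript length by natural splines of 4 degrees of freedom, the replicate number as a block, and leaving out libraries.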

Additional observations from a re-analysis of the deposited data

How the results depend on the processing

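The direction and the side of the threshold of *Fgf1* were the same in all 15 alternatives, 14 planned and 1 added after seeing the data, with log2 fold changes from -0.38 to -0.14 and unadjusted p from 0.0818 to 0.44 from limma. The number of ligands past the criteria, among those tested in a setting, was 0 in each of them. *Fgf9* was -0.091 with a pseudocount of 0.1, -0.047 with rescaling without *Amelx* and *Ambn*, and between -0.21 and 0.32 when each library was left out. With a pseudocount of 0.1, the untested differences of *Fgf7*, *Fgf10* and *Fgf20* were 0.69, 0.11 and -0.48, against 0.21, 0.01 and -0.08 with a pseudocount of 1, and those of *Fgf2* and *Fgf3* were -0.25 and -0.37, against -0.14 and -0.15. *Fgf3* was 0.024 without control replicate 1, *Fgf10* was -0.067 without control replicate 3, -0.054 without both libraries numbered 3 and -0.00086 with rescaling, and *Fgf7* was 0.0043 without cKO replicate 2. Quantile normalization, the length and GC correction and the block were not run for the ligands under the minimum level, and *Fgf4* and *Fgf8* gave no value. *Wnt10a* was called in every alternative.

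The number of all genes past the criteria, 552, became 940 with no minimum level, 900 with rescaling, 1220 without both libraries numbered 3, and 204 to 1159 when each library was left out. The lowest counts were 204, 237 and 282 without cKO replicate 1, control replicate 1 and cKO replicate 2, and the highest 1159 and 951 without control replicate 3 and cKO replicate 3. Rescaling gave 147 higher and 753 lower genes and moved the median of all genes to -0.14, quantile normalization gave 324 higher and 325 lower, median-ratio scaling 315 and 334, the length and GC correction 334 and 285, and the fit of the report 213 and 339. The number with an adjusted p below 0.05, 2 in the report, became 4 with a pseudocount of 0.1, 1 with no minimum level, 4 with quantile normalization, 19 without both libraries numbered 3 and 2 to 9 when each library was left out. The count over the other pathway lists, 2, became 5 with no minimum level, 0 with quantile normalization, 0 with median-ratio scaling, 1 with the length and GC correction, 6 without both libraries numbered 3 and 0 to 5 when each library was left out. The cause was not tested.

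Same-numbered libraries had correlations of their deviations from the group means of -0.08, 0.29 and 0.40 across genes, so the numbers were not taken to pair the samples. A replicate block gave 1315 genes past the criteria, 408 higher and 907 lower, or 1109, 614 higher and 495 lower, with the length and GC correction, and 4 and 1 had an adjusted p below 0.05. *Fgf1* then had an unadjusted p of 0.121 and *Fgf9* of 0.961 from limma, and neither met the criteria with the block.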
